A study of Mus musculus with 9 samples.

Results

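The genes followed here are 40 genes of antioxidant defence, glutathione metabolism and ferroptosis, chosen by their symbols and read in brain cortex mRNA of 3 inbred mouse strains. The 40 symbols matched 41 of the 54532 gene identifiers in the table, because Nnt was listed under 2 identifiers. The strains were B6 (C57BL6/J, a classical inbred strain), C3H (C3H/HeJ, another classical inbred strain) and WSB (WSB/EiJ, a wild-derived inbred strain). Each strain was represented by 3 male adults of 8 to 12 weeks, and the labels and methods name no treatment, surgery or transgene for any of the 9 mice. The study asked which genes might underlie a locus on Chr 8 that affects infarct volume after stroke, and cortex RNA was compared between strains for that purpose. The Chr 8 members Gsr, Prdx2 and Nqo1 lie outside both intervals that the paper mapped to that chromosome. The libraries held 16317439 to 21562429 reads on genes, the B6 libraries holding at least 17651630, the C3H libraries at least 19042306 and the WSB libraries at most 17784118. The labels name nothing beyond the mouse of origin that separates the libraries of a strain. The p-values therefore measure the spread between mice of an inbred strain bred locally, together with any differences in dissection and library preparation.

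Cells remove superoxide with superoxide dismutases, and the hydrogen peroxide that results is reduced by catalase, glutathione peroxidases and peroxiredoxins. Glutathione and thioredoxin supply the electrons and are themselves regenerated by reductases that use NADPH. Ferroptosis is a form of cell death driven by iron-dependent peroxidation of membrane lipids, which GPX4 counters, and it has been studied in the ischemic brain. Many of these genes are controlled by the transcription factor NRF2 (Nfe2l2), which KEAP1 holds in check. Ferritin and transferrin receptor RNAs are bound by iron regulatory proteins.

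The active-site codons show how the peroxidases and thioredoxin reductases of the list differ, and they were read from the coding sequences of GENCODE M21 (GRCm38). In 5 members, Gpx1, Gpx3, Gpx4, Txnrd1 and Txnrd2, a TGA inside the reading frame encodes selenocysteine, a feature found in 24 of 21520 protein-coding genes. At the corresponding position Gpx7 and Gpx8 have a cysteine codon. The codon is in capitals in each 30-base stretch of coding strand, 5′ to 3′. Codon numbers count along the longest annotated transcript that held the site in a complete reading frame. Other transcripts of a gene can number the site otherwise.
Gpx1, chr9:108339436-108339465, plus strand, codon 47: aatgtcgcgtctctcTGAggcaccacgatc
Gpx3, chr11:54907241-54907270, plus strand, codon 73: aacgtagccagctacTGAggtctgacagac
Gpx4, chr10:80054722-80054751, plus strand, codon 129: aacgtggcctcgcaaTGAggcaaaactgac
Gpx7, chr4:108403418-108403447, minus strand, codon 56: aacgtagctagcgaaTGTggcttcacagac
Gpx8, chr13:113045649-113045678, minus strand, codon 79: aacgtggctagtgacTGCcgcttcacagac
Txnrd1, chr10:82896016-82896045, plus strand, codon 612: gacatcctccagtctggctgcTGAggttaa
Txnrd2, chr16:18477751-18477780, plus strand, codon 526: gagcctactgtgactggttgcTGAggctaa
In both reductases the selenocysteine codon is next to last, followed by a glycine codon and the stop codon.

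The iron members carry the hairpin bound by iron regulatory proteins, and these sites are shown because ferritin and transferrin receptor transcripts are set side by side below. The search, on the strand of annotated transcripts, was for a C, then 5 bases, then the loop CAGTG and a base other than G, then 5 bases that pair with the first 5, G with T included. It found a match in 4 of the 40 members and in 222 of 21901 protein-coding genes (1.01%). The loop CAGTG and its next base are in capitals.
Fth1, before the coding sequence, chr19:9982732-9982760, plus strand: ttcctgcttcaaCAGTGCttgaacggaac
Ftl1, before the coding sequence, chr7:45459779-45459807, minus strand: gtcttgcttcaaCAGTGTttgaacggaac
Tfrc, after the coding sequence, chr16:32631219-32631247, plus strand: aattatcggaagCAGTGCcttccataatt
Tfrc, after the coding sequence, chr16:32631598-32631626, plus strand: cattatcgggagCAGTGTcttccataatg
Tfrc, after the coding sequence, chr16:32631663-32631691, plus strand: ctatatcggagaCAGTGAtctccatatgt
Tfrc, after the coding sequence, chr16:32631710-32631738, plus strand: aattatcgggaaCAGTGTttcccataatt
The remaining match lay inside the coding sequence of Keap1. A match is a description of letters, and no binding was measured.

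The antioxidant response element, to which NRF2 binds with a small MAF partner, was searched as TGACNNNGC on both strands in the 250 bases before each RefSeq gene start (GRCm38.p6). Promoters were found for 34 of the 40 members. The element matched in 7 of the 34 (20.6%), compared with 3112 of 27025 genes (11.5%). They were Gclm, Gstm5, Mgst1, Nfe2l2, Prdx1, Sod1 and Txnrd1, and 2 are shown on the strand of the match with the match in capitals, 1 of glutathione synthesis and 1 of peroxide removal.
Gclm, chr3:122245417-122245437, gene on the plus strand, match on the other strand: gagagtTGACGGTGCgcccgg
Prdx1, chr4:116685460-116685480, gene on the plus strand, match on the other strand: gggggaTGACTCAGCgctttc
The Prdx1 match overlaps the AP-1 motif TGACTCA. None of the 7 genes passed the test described below in any comparison.

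The members spanned a wide range of levels in cortex, given here as FPKM (a fragment count scaled by gene length and by library). Fth1, the ferritin heavy chain that stores iron, was the highest member, at rank 7 of all genes, at 1837 to 2388 FPKM in the 9 mice. Gpx4 (mean of the 9 mice 181 FPKM), Gstp1 (146), Gstm1 (129), Ftl1 (125), Gstm5 (124) and Prdx5 (121) followed. At the low end stood Gss (3.23), Gpx7 (3.17), Sod3 (2.99), Mgst1 (2.70) and Aifm2 (1.77). Nnt, the mitochondrial transhydrogenase that makes NADPH, was near 0.

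**Figure D1:**
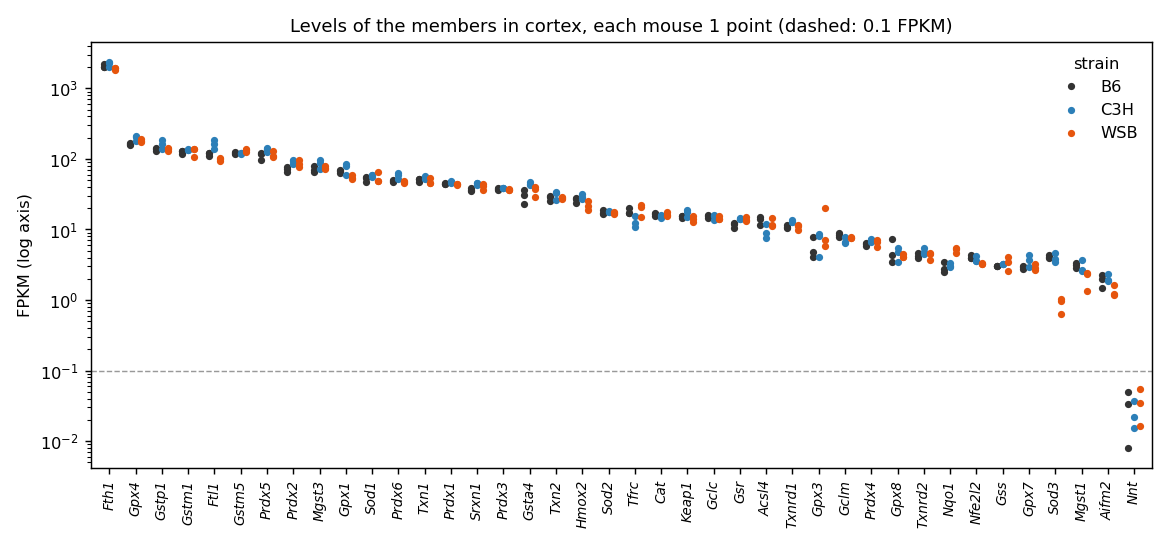
Level of each member (FPKM, log axis) in each of the 9 mice, with members ordered by their mean and 1 point per mouse coloured by strain (B6 dark, C3H blue, WSB orange). Sod3 in WSB (0.643 to 1.03 FPKM) stands below B6 and C3H, Gpx3 in 1 WSB mouse (20.2 FPKM) stands above the rest, and Nnt lies under the dashed line at 0.1 FPKM, the minimum for testing.

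Nnt could not be compared. The first of its identifiers, ENSMUSG00000025453, drew between 1 and 7 reads per library in every strain, and ENSMUSG00000116207 was listed at 0 in all 9 mice. The identifiers overlap on the same strand (chr13:119335528-119408952), and how the authors assigned reads that fall on both is not given in the sources used here. The values therefore say nothing of the level of Nnt. The other 39 members passed the filter of a mean of 0.1 FPKM and were tested.

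Some features of the libraries bear on the values below. Each list of 5 or 6 markers of a cell type or neighbouring tissue was detected in full, with none at 0. Summed oligodendrocyte markers were lower in WSB (427 to 617 FPKM) than in B6 (784 to 982) and C3H (734 to 989). All 6 markers had non-overlapping values between WSB and B6, and 4 of 6 between WSB and C3H. Summed microglia markers were also lower in WSB (133 to 143) than in B6 (169 to 173) and C3H (151 to 178), with 5 of 6 and 4 of 6 markers apart. Summed astrocyte markers were lower in WSB (306 to 355) than in B6 (360 to 394), with 2 of 6 markers apart, and overlapped between WSB and C3H. Blood markers were higher in C3H (632 to 1010) than in B6 (217 to 254) and WSB (249 to 329), with 3 of 5 and 4 of 5 markers apart. Summed hippocampus markers were higher in WSB (64.5 to 72.4) than in B6 (37.0 to 48.2) and C3H (47.4 to 49.4). In these comparisons only 1 of 5 and 2 of 5 markers were apart. Of all genes tested, 26.0% were apart between WSB and B6, 28.6% between WSB and C3H, and 28.9% between C3H and B6. Choroid plexus markers varied within strains, from 64.1 to 764 in B6, and so did striatum markers, from 99.6 to 407 in B6. In bulk tissue, fewer cells of a type and less RNA per cell cannot be told apart. One library stood out by its effect on calls: without C3H replicate 2, the number of all genes that differed between C3H and B6 went from 956 to 2301, and the values without it are given for each member whose call it changes.

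Between WSB and B6, 2 of the 39 members tested differed at an adjusted p of 0.05 (5.13%), Sod3 lower and Nqo1 higher in WSB, compared with 5.90% of the 20746 genes tested, 2.81% higher and 3.09% lower (limma on log2(FPKM + 0.1), Benjamini-Hochberg adjustment over all genes). Between WSB and C3H, 3 of 39 differed (7.69%), Sod3 and Ftl1 lower and Nqo1 higher in WSB, compared with 5.74% of 20607 genes, 2.61% higher and 3.13% lower. Between C3H and B6, 0 of 39 differed, compared with 4.64% of 20602 genes. At an unadjusted p of 0.05 the counts were 9, 12 and 12 of 39 for WSB and B6, WSB and C3H, and C3H and B6, compared with 20.4%, 23.8% and 24.1% of all genes. At the adjusted p the members' shares were near those of all genes in both comparisons with WSB. Of the other settings tried for C3H and B6, voom weights called 4 members (Ftl1, Gsta4 and Prdx2 higher, Tfrc lower in C3H). More of all genes were also called with voom weights, as given in the last section. The fit of all 3 strains called Ftl1. Rescaling to total reads and removal of the GC trend each called Prdx2, higher in C3H.

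Sod3 encodes the secreted superoxide dismutase that acts in the extracellular space and on vessel walls. It lies on Chr 5 (chr5:52363791-52371418, plus strand). B6 mice had 3.90, 4.40 and 4.02 FPKM, and C3H mice had 4.60, 3.44 and 3.87 FPKM. WSB mice had 0.643, 0.973 and 1.03 FPKM. Every WSB mouse lay well below every mouse of the other strains, which overlapped each other. The means were 4.10 ± 0.261 in B6, 3.97 ± 0.587 in C3H and 0.881 ± 0.207 FPKM in WSB (SD, n = 3), on 249 to 332 reads per library in B6 and C3H and 40 to 70 in WSB. The level in WSB was 4.35-fold lower than in B6 (log2 fold change -2.12, SE 0.18, adjusted p by limma 0.000724). It was 4.19-fold lower than in C3H (log2 fold change -2.07, SE 0.20, adjusted p by limma 0.00163). C3H and B6 gave a log2 fold change of -0.06 with an adjusted p by limma of 0.828. The call held in both WSB comparisons under all 10 alternative settings and with each mouse left out. Summed endothelial markers overlapped between WSB (22.1 to 28.4 FPKM) and B6 (25.7 to 29.1), though 2 of 5 markers were lower in WSB without overlap. The oligodendrocyte, microglia and astrocyte markers were lower in WSB than in B6 as above. The part of all these markers in the result was not tested. No near-identical copy of Sod3 was found among the transcripts.

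The other enzymes that remove superoxide and the catalase did not pass in any comparison. Sod1, the cytosolic enzyme and the highest of the group, had 46.9, 55.1 and 54.3 FPKM in B6, 59.8, 54.6 and 59.7 in C3H, and 49.2, 65.8 and 48.9 in WSB. The strains overlapped, and the log2 fold changes of WSB and C3H against B6 were 0.06 and 0.16. Sod2, the mitochondrial enzyme, and Cat, the peroxisomal catalase, stayed within 0.10 log2 units of 0 in all 3 comparisons. The SE of these differences was 0.07 to 0.08.

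Nqo1 encodes a cytosolic quinone reductase and is a classical NRF2 target. It lies on Chr 8 (chr8:107388225-107403206, minus strand), outside both intervals mapped there in the study. B6 mice had 2.48, 3.48 and 2.75 FPKM, C3H mice 3.32, 3.06 and 2.99, and WSB mice 4.65, 5.32 and 5.53. All WSB mice were above all others, and B6 and C3H overlapped. The means were 2.90 ± 0.514, 3.12 ± 0.176 and 5.17 ± 0.463 FPKM (SD, n = 3), on 69 to 157 reads per library. Nqo1 was 1.77-fold higher in WSB than in B6 (log2 fold change 0.82, SE 0.14, adjusted p by limma 0.0188). It was 1.63-fold higher than in C3H (log2 fold change 0.71, SE 0.11, adjusted p by limma 0.0127). The call was less stable than that of Sod3. Without B6 replicate 1, B6 replicate 3, WSB replicate 2 or WSB replicate 3 in turn, the adjusted p by limma against B6 was 0.0529, 0.0727, 0.0673 and 0.0708. Without C3H replicate 3, WSB replicate 2 or WSB replicate 3, that against C3H was 0.0571, 0.0516 and 0.0506. The 250 bases before its RefSeq start held no match to the element TGACNNNGC.

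**Figure D2:**
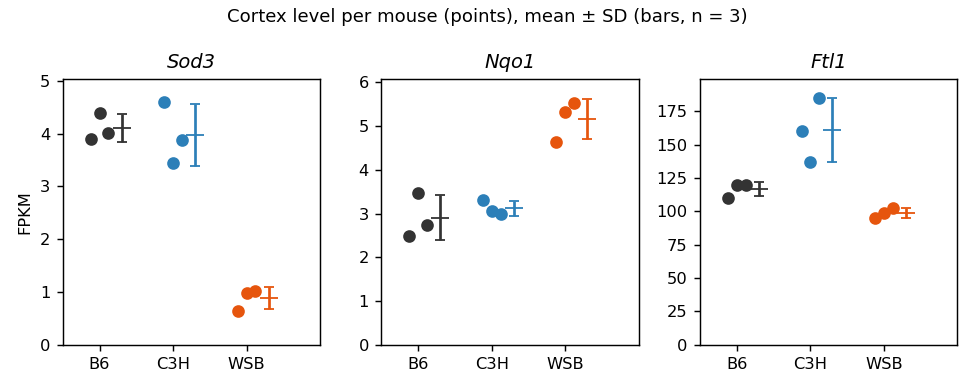
Level (FPKM) of Sod3, Nqo1 and Ftl1 in each mouse by strain, points for the 3 mice and bars for mean ± SD. Sod3 in WSB (0.643 to 1.03 FPKM) and Nqo1 in WSB (4.65 to 5.53 FPKM) do not overlap the other strains, and the Ftl1 values of the 3 strains do not overlap each other.

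Hmox2, the constitutive heme oxygenase that is the main form in brain, was grouped with Nqo1. It had 26.4 ± 2.50 FPKM in B6, 29.4 ± 1.99 in C3H and 22.2 ± 3.26 in WSB (SD, n = 3). WSB and C3H mice did not overlap, and the log2 fold change of -0.41 had an adjusted p by limma of 0.0905. With voom weights the adjusted p by limma was 0.0497. Hmox2 overlaps Cdip1 on the opposite strand and Gm15859 on the same strand, and whether the counting used strand is not given in the sources used here.

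Of the iron members, Ftl1 differed between WSB and C3H. Ftl1, the ferritin light chain, lies on Chr 7 (chr7:45457944-45459884, minus strand). It had 110, 120 and 120 FPKM in B6, 160, 137 and 185 in C3H, and 95.0, 98.4 and 103 in WSB. The 3 strains did not overlap, with WSB lowest and C3H highest. The means were 117 ± 5.57, 161 ± 24.2 and 98.7 ± 3.82 FPKM (SD, n = 3). Ftl1 was 1.62-fold lower in WSB than in C3H (log2 fold change -0.69, SE 0.11, adjusted p by limma 0.0151). Against B6 the log2 fold change was -0.24 in WSB and 0.45 in C3H, with adjusted p by limma of 0.0967 and 0.0766. With the GC trend over all genes removed, the difference between WSB and B6 was -0.28 with an adjusted p by limma of 0.0232. Without C3H replicate 2, that between C3H and B6 was 0.56 with an adjusted p by limma of 0.0207. The call between WSB and C3H was lost without C3H replicate 1 (adjusted p by limma 0.0717), WSB replicate 1 (0.0678) or WSB replicate 2 (0.0556), and with eBayes without a trend (0.0575). Summed oligodendrocyte markers, from cells known to be rich in ferritin, were lower in WSB, and blood markers were higher in C3H. Their part in the result was not tested. The 7 near copies of Ftl1 in the annotation summed to 2.93 FPKM at most, and adding them gave a log2 difference of -0.70.

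Fth1 had 1985, 2027 and 2215 FPKM in B6, 2315, 1991 and 2388 in C3H, and 1837, 1974 and 1949 in WSB. All WSB mice lay below all others, by little, and B6 and C3H overlapped. The log2 fold changes of -0.11 against B6 and -0.21 against C3H had adjusted p by limma of 0.645 and 0.339. Tfrc, the receptor that takes up transferrin-bound iron, had 20.1, 17.3 and 16.9 FPKM in B6, 12.3, 15.5 and 10.8 in C3H, and 20.6, 14.8 and 22.2 in WSB. C3H lay below B6 without overlap, at a log2 fold change of -0.50 (SE 0.14, adjusted p by limma 0.0940). WSB against C3H gave 0.57 (SE 0.18, adjusted p by limma 0.123), with WSB replicate 2 inside the C3H range. Without C3H replicate 2 the difference of Tfrc between C3H and B6 was -0.64 with an adjusted p by limma of 0.0226. C3H had the highest Ftl1 mean and the lowest Tfrc mean of the 3 strains, and neither gene passed between C3H and B6. Any part of the hairpins printed above in these levels was not tested.

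Among the other iron genes, a list of 17 with 16 in the table, 3 of 16 differed between WSB and B6 and the same 3 between WSB and C3H, all lower in WSB, beside 3.09% and 3.13% of all genes lower and 5.90% and 5.74% called in all. Steap3 encodes a reductase that frees iron taken up with transferrin. It had 1.25, 1.54 and 1.49 FPKM in B6, 2.04, 1.67 and 2.24 in C3H, and 0.389, 0.313 and 0.431 in WSB. No WSB mouse approached the other strains, and the log2 fold changes were -1.68 against B6 and -2.12 against C3H (SE 0.20 for both, adjusted p by limma 0.00352 and 0.00142). Slc11a2, the divalent metal transporter DMT1, had a mean of 4.57 ± 0.290 FPKM in WSB, compared with 7.63 ± 0.138 in B6 and 7.18 ± 0.338 in C3H (SD, n = 3). Its log2 fold changes were -0.73 and -0.64 (adjusted p by limma 0.00298 and 0.00912). Ncoa4, the receptor that delivers ferritin to the lysosome, had 2.60 ± 0.293 FPKM in WSB, 4.67 ± 0.268 in B6 and 4.24 ± 0.415 in C3H (SD, n = 3). Its log2 fold changes were -0.83 and -0.69 (adjusted p by limma 0.00770 and 0.0261). The medians of the 16 iron genes were -0.10, -0.10 and -0.04 for WSB against B6, WSB against C3H and C3H against B6, beside medians within 0.01 of 0 over all genes.

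**Figure D3:**
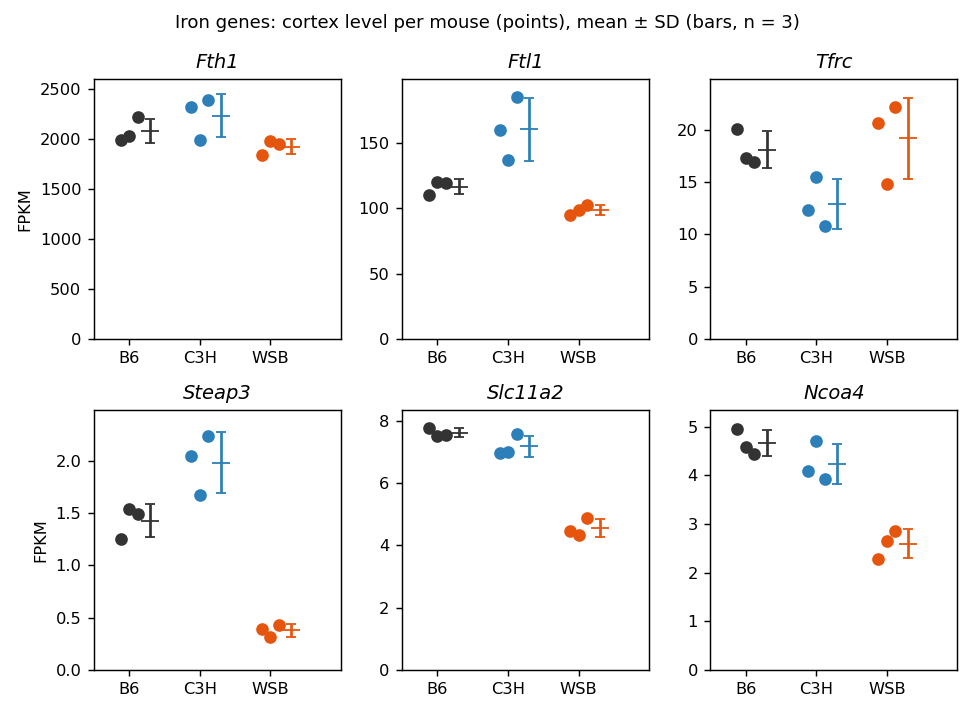
Level (FPKM) of Fth1, Ftl1, Tfrc, Steap3, Slc11a2 and Ncoa4 in each mouse by strain, points for the 3 mice and bars for mean ± SD. Steap3, Slc11a2 and Ncoa4 are lower in all WSB mice than in all others (Steap3 at most 0.431 FPKM in WSB and at least 1.25 FPKM elsewhere), and Tfrc is lowest in C3H.

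None of the 5 glutathione peroxidases passed in any comparison. Gpx4, the phospholipid hydroperoxidase that holds back ferroptosis, was the highest. It had 155, 163 and 170 FPKM in B6, 203, 182 and 212 in C3H, and 175, 192 and 178 in WSB. Both C3H and WSB lay above B6 without overlap, at log2 fold changes of 0.28 (SE 0.09) and 0.16 (SE 0.07), and the adjusted p by limma was 0.111 and 0.287. Without C3H replicate 2, the difference between C3H and B6 was 0.35 with an adjusted p by limma of 0.0412. Gpx1, the main cytosolic enzyme, was lower in WSB (54.8 ± 4.1 FPKM) than in B6 (66.6 ± 4.2) with no overlap (SD, n = 3), at a log2 fold change of -0.28 and an adjusted p by limma of 0.103. It was also below C3H (74.3 ± 12.9) without overlap (SD, n = 3), at -0.43 with an adjusted p by limma of 0.117, and without C3H replicate 2 at -0.58 with an adjusted p by limma of 0.0171. Gpx3, the secreted plasma form, varied most between mice of one strain. It had 4.10, 7.73 and 4.81 FPKM in B6, 8.09, 4.04 and 8.58 in C3H, and 5.77, 20.2 and 7.04 in WSB. The log2 fold change of WSB against B6 was 0.80 with an SE of 0.46 (adjusted p by limma 0.396), and against C3H it was 0.51. Without WSB replicate 2 these became 0.25 and -0.04. Summed choroid plexus markers of replicates 1, 2 and 3 were 66.65, 764 and 64.1 FPKM in B6, 91.8, 446 and 655 in C3H, and 535, 468 and 603 in WSB. The part of these markers in the Gpx3 values was not tested. Gpx7 and Gpx8, the endoplasmic reticulum forms with the cysteine codons printed above, had levels of 2.71 to 4.32 and 3.41 to 7.42 FPKM, and adjusted p by limma of at least 0.262.

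The 6 peroxiredoxins, which reduce peroxides with a cysteine thiol, and Srxn1, which restores their overoxidised form, all had log2 fold changes above 0 in C3H against B6, from 0.06 (Prdx3) to 0.36 (Prdx2), and below 0 in WSB against C3H, from -0.30 to -0.08. None of the 7 passed the test. In C3H and B6, 6 of the 7 did not overlap, with C3H higher in each, compared with 14.9% of all genes that did not overlap and were higher in C3H. Prdx2, a cytosolic form also abundant in red cells, had 64.7, 71.4 and 75.9 FPKM in B6, 93.1, 84.1 and 95.4 in C3H, and 84.0, 95.7 and 76.8 in WSB. Its log2 fold change in C3H was 0.36 (SE 0.09, adjusted p by limma 0.0662), and without C3H replicate 2 it was 0.42 with an adjusted p by limma of 0.0362. Prdx2 also passed in 3 of 10 alternative settings, with voom weights, after rescaling to total reads and with the GC trend removed. It lies on Chr 8 (chr8:84969587-84974834, plus strand), outside both mapped intervals, and overlaps Junb and Rnaseh2a on the opposite strand. Whether the counting used strand is not given in the sources used here. Blood markers were higher in C3H, and their part in the result was not tested. Prdx5, the highest of the family, had 98.0, 116 and 120 FPKM in B6, 143, 127 and 140 in C3H, and 108, 130 and 111 in WSB. Its log2 fold change in C3H was 0.30 with an adjusted p by limma of 0.130. Prdx6 passed without C3H replicate 2, at 0.33 in C3H against B6 (adjusted p by limma 0.0404) and -0.37 in WSB against C3H (adjusted p by limma 0.0316), and in the fit of all 3 strains for WSB against C3H, while Prdx1, Prdx3 and Prdx4 stayed within 0.20 log2 units of 0 in every comparison.

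The 4 members of the thioredoxin system, Txn1 and Txn2 (the cytosolic and mitochondrial thioredoxins) and Txnrd1 and Txnrd2 (their reductases), followed the same direction. Their log2 fold changes were 0.10 to 0.23 in C3H against B6, -0.25 to -0.16 in WSB against C3H, and -0.06 to 0.00 in WSB against B6. None passed. Txn1 had the highest level, 46.8, 52.2 and 51.8 FPKM in B6, 57.05, 51.8 and 53.0 in C3H, and 45.6, 53.2 and 45.8 in WSB, with all strains overlapping. Txnrd1 in C3H (12.6, 12.6 and 13.5 FPKM) lay above all mice of B6 (10.6 to 11.6) and WSB (9.93 to 11.4), with adjusted p by limma of 0.135 and 0.139.

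Glutathione supply was represented by Gclc and Gclm (the catalytic and modifier subunits of the enzyme of the first step of synthesis), Gss (the second step), Gsr (which reduces oxidised glutathione) and Nnt. No tested member passed. Gsr lies on Chr 8 (chr8:33652523-33698163, plus strand), outside both intervals mapped there in the study. It had 12.3, 10.6 and 12.0 FPKM in B6, 14.2, 14.6 and 14.3 in C3H, and 13.6, 13.1 and 15.2 in WSB. Every C3H and WSB mouse was above every B6 mouse. The log2 fold change was 0.30 (SE 0.08, adjusted p by limma 0.0893) in C3H and 0.26 (SE 0.09, adjusted p by limma 0.175) in WSB, and C3H and WSB overlapped. Gclc, the highest of the group, had 16.2, 14.6 and 15.5 FPKM in B6, 13.5, 15.8 and 15.7 in C3H, and 15.6, 13.9 and 14.1 in WSB, with log2 fold changes of -0.09 to -0.05. Gclm in C3H (6.39 to 7.79 FPKM) lay just below B6 (7.86 to 8.85), at a log2 fold change of -0.26 and an adjusted p by limma of 0.184.

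The 6 glutathione transferases couple glutathione to reactive molecules, and none passed. Gsta4, which acts on the lipid peroxidation product 4-hydroxynonenal, had 22.9, 35.7 and 31.2 FPKM in B6, 46.5, 44.0 and 43.2 in C3H, and 40.3, 37.3 and 28.9 in WSB. C3H lay above both other strains without overlap. The log2 fold change of C3H against B6 was 0.60 (SE 0.15, adjusted p by limma 0.0769), and with voom weights the adjusted p by limma was 0.0293. Mgst1, a membrane-bound transferase and peroxidase, had 3.36, 2.80 and 3.15 FPKM in B6, 2.62, 2.64 and 3.66 in C3H, and 1.34, 2.38 and 2.34 in WSB. WSB was below both without overlap, at log2 fold changes of -0.63 (SE 0.22) and -0.56 (SE 0.25), and the adjusted p by limma was 0.163 and 0.218. Gstm1, Gstm5 and Mgst3 had log2 fold changes between -0.19 and 0.25.

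Gstp1, the highest transferase, shares sequence with the processed pseudogene Gstp-ps (97.6% identity over 631 bases). Gstp1 had 130, 145 and 140 FPKM in B6, 164, 138 and 184 in C3H, and 129, 142 and 140 in WSB, and the strains overlapped. Gstp-ps had 0.797, 0.706 and 1.04 FPKM in B6, 1.11, 1.23 and 1.22 in C3H, and 13.7, 16.2 and 9.46 in WSB. It was higher in WSB by a log2 fold change of 3.78 against B6 (adjusted p by limma 9.33e-05) and 3.33 against C3H (adjusted p by limma 0.000147). It was named after its values were seen. Reads of the gene and its copy could be split between them in counting, so the Gstp1 values are uncertain to that extent. With its copies added, Gstp1 was 140 ± 7.84 FPKM in B6 and 150 ± 8.03 in WSB (SD, n = 3), and the log2 difference went from -0.013 to 0.11. Gpx4 has a copy of 99.6% identity over 512 bases, Gpx4-ps2, at 16.0 ± 0.821 FPKM in B6, 22.7 ± 3.32 in C3H and 20.8 ± 0.240 in WSB (SD, n = 3). Adding it moved the Gpx4 log2 differences against B6 to 0.30 in C3H and 0.18 in WSB.

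**Figure D4:**
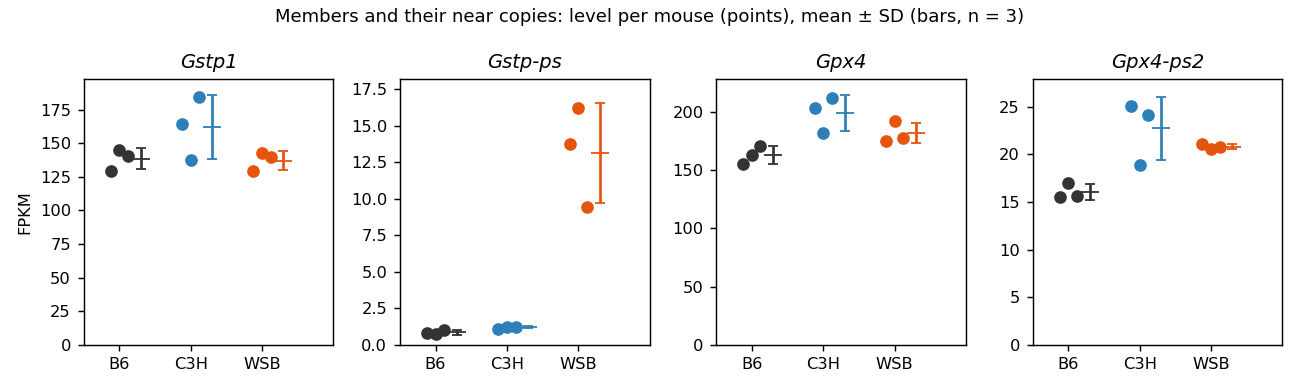
Level (FPKM) of Gstp1 and Gpx4 and of their near-identical copies Gstp-ps and Gpx4-ps2 in each mouse by strain, points for the 3 mice and bars for mean ± SD. Gstp-ps reaches 9.46 to 16.2 FPKM in WSB and at most 1.23 FPKM in the other strains, while Gstp1 overlaps between strains.

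Acsl4 activates polyunsaturated fatty acids for the phospholipids that ferroptosis consumes, and Aifm2 (FSP1) protects membranes by reducing coenzyme Q. Acsl4 had 14.9, 14.0 and 11.6 FPKM in B6, 8.86, 12.1 and 7.64 in C3H, and 14.3, 11.1 and 11.6 in WSB. C3H replicate 2 alone reached the B6 range. The log2 fold change of C3H against B6 was -0.52 (SE 0.18, adjusted p by limma 0.141), and without that mouse it was -0.70 with an adjusted p by limma of 0.0282. Aifm2 had 1.97, 2.26 and 1.49 FPKM in B6, 1.89, 1.95 and 2.38 in C3H, and 1.21, 1.63 and 1.17 in WSB. WSB was below C3H without overlap, at a log2 fold change of -0.61 (SE 0.18, adjusted p by limma 0.0993).

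The regulators Nfe2l2 and Keap1 did not pass. Nfe2l2 had 4.14 ± 0.234 FPKM in B6, 3.77 ± 0.334 in C3H and 3.26 ± 0.0889 in WSB (SD, n = 3). WSB was below both without overlap, and the log2 fold changes of -0.33 and -0.20 had adjusted p by limma of 0.0967 and 0.296. Keap1 overlapped in all comparisons, with log2 fold changes from -0.29 to 0.18.

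In C3H against B6, 29 of 39 members had a log2 fold change above 0, and the median was 0.15, beside 49.6% of all genes above 0 and a median of 0.00. In WSB against C3H, 8 of 39 were above 0 with a median of -0.13 (all genes 51.1% and 0.01), and in WSB against B6, 18 of 39 with a median of -0.01 (all genes 50.3% and 0.00). The comparisons share strains, so they are not independent. Strain ranges did not overlap for 15 members in C3H and B6 (13 higher and 2 lower in C3H, where 14.9% and 14.0% of all genes did so), for 15 in WSB and C3H (2 higher and 13 lower in WSB, with 14.2% and 14.4% of all genes), and for 10 in WSB and B6 (4 higher and 6 lower, with 13.0% and 13.1%). Without regard to direction these were 38.5%, 38.5% and 25.6% of the members, beside 28.9%, 28.6% and 26.0% of all genes. The GC content of the transcript went with the fold change in C3H against B6, with a Spearman rho of 0.69 over the 39 members and 0.34 over 20579 genes, which share libraries. With the GC trend over all genes removed, 32 of 39 members were above 0 in C3H, with a median of 0.13, and 6 of 39 were above 0 in WSB against C3H, with a median of -0.15.

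**Figure D5:**
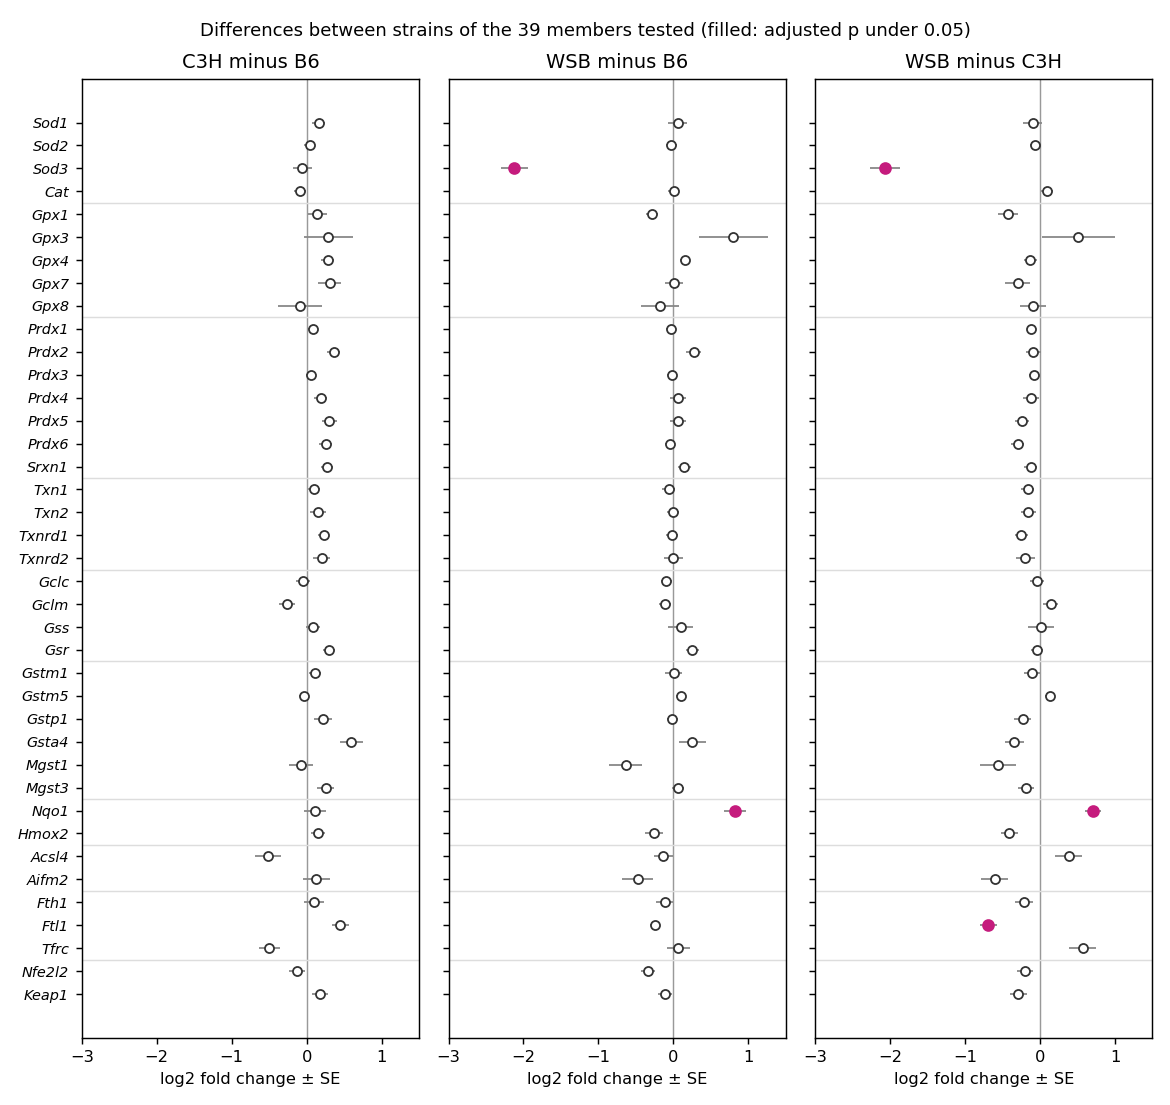
Log2 fold change with its SE for the 39 members tested in the 3 comparisons, grouped by role with grey lines between roles, filled points having an adjusted p under 0.05. Most members lie right of 0 in C3H minus B6 (29 of 39) and left of 0 in WSB minus C3H (31 of 39), and Sod3 is the only member past 2 log2 units.

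Of 127 other genes of these pathways in the table, 6 of 120 tested differed between WSB and B6 (5%), compared with 5.90% of all genes, and all 6 were lower in WSB (3.09% of all genes). Beside the 3 iron genes these were Gstt1, a theta-class transferase (6.53 ± 1.14 FPKM in B6 and 3.77 ± 0.296 in WSB, log2 fold change -0.77, adjusted p by limma 0.0244), Coq2, of coenzyme Q synthesis (log2 fold change -0.42, adjusted p by limma 0.0271), and Lancl1, a glutathione-binding protein of neurons (log2 fold change -0.31, adjusted p by limma 0.0490). Between WSB and C3H, 8 of 119 differed (6.72%, compared with 5.74% of all genes). Gstt1, Gstt3, Me3 and Selenow, a small selenoprotein, were lower in WSB with the 3 iron genes, and Acsl3, which activates monounsaturated fatty acids, was higher. Between C3H and B6, 8 of 121 differed (6.61%, compared with 4.64% of all genes). Among them, Blvrb (biliverdin reductase B), Glrx (glutaredoxin), Gstz1, Me3 (the mitochondrial malic enzyme that makes NADPH) and Pla2g6 (a phospholipase that removes oxidised fatty acids) were higher in C3H, by log2 fold changes of 0.41 to 0.78. Coq2 and Glrx2 were lower, by -0.63 and -0.41. Coq2 was 32.2 ± 2.94 FPKM in B6, 20.7 ± 1.54 in C3H and 24.0 ± 0.619 in WSB (SD, n = 3), and was thus lower than in B6 in both other strains. None of the 11 other NRF2 regulators differed in any comparison, and the 9 genes of selenoprotein synthesis and transport differed in 1 instance, Selenow in WSB against C3H.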

How the data were processed

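Cortex mRNA of 3 male mice per strain was sequenced, and samples were grouped by the strain in their labels. The authors trimmed reads with Cutadapt and counted them with HTSeq. The submitters' processing notes name STAR, HTSeq and DESeq2, without versions. The deposited values are FPKM for 54532 identifiers in 9 columns, each matched to a sample title. The genome build is not given in the sources used here. Of the identifiers, 54495 were found in GENCODE M21 (GRCm38) and 53499 had its coordinates, including 39 of the 41 of the members (not Fth1 and Gstp1). How strain variants affected alignment was not tested.

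The FPKM values times gene length were whole multiples of a step in each library (100% of values within 0.01 reads), which gave reads for depth and for voom weights. Members and gene lists were chosen with earlier results of these data known. Pathway, marker and role lists and the named-gene rule follow that choice: all members are covered, with full values for those that passed, those with an absolute log2 fold change of 0.5 and a mean of 1 FPKM, Nnt, Gsr and the highest of each role, and of the pathway list only those that passed are named. Tf was not found as a symbol. A result for 1 gene of the pathway list is not reported here.

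Pairs of strains were fitted with limma 3.58.1 under R 4.3.3 (lmFit, then eBayes with trend). Values were log2(FPKM + 0.1), tests were two-sided, and genes averaging under 0.1 FPKM across the 6 mice were left out. Adjustment followed Benjamini-Hochberg over all genes fitted, at 0.05. The script was tested on simulated data. Fold changes are on that log2 scale and understate changes of low genes. No pair of libraries of a strain agreed within sampling noise. Near copies were searched with blastn 2.17.0 (90% identity over 50% of the coding sequence). Alternatives were a pseudocount of 1 or 0.01, a filter of 1 FPKM or none, a joint fit of the strains, eBayes with the trend off, voom, scaling to total reads, removal of the GC trend, a replicate block and leaving out each mouse. Adding near copies was chosen after seeing the data.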

Additional observations from a re-analysis of the deposited data

Results flagged for a closer look

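Ftl1 was marked because every mouse of WSB lay below every B6 mouse (log2 fold change -0.24) while every mouse of C3H lay above (log2 fold change 0.45). The difference between these effects is the comparison of WSB with C3H, which passed with a log2 fold change of -0.69 and an adjusted p by limma of 0.0151. Its range over the alternatives and left-out mice was -0.81 to -0.58, with adjusted p from 0.00268 to 0.0717. Each strain's values are given above with the oligodendrocyte and blood markers that moved beside them. Groups of 3 were too small for a check of single outlying mice.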

How the results depend on the processing

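Sod3 kept its direction and its call in both WSB comparisons under all alternatives and with each mouse left out. For the members called, the count between WSB and B6 was 1 with eBayes without a trend, 3 once the GC trend was taken out (Ftl1 added), and 1 to 2 with a mouse left out. The count between C3H and B6 was 1 with all strains in one fit (Ftl1) and 4 with voom weights. It was 1 after rescaling to total reads and 1 once the GC trend was taken out, Prdx2 in each. With a mouse left out it was 0 to 6 (6 without C3H replicate 2). The count between WSB and C3H was 2 with eBayes without a trend, 4 with all strains in one fit, 5 with voom weights and 1 to 5 with a mouse left out (1 without WSB replicate 2, 5 without C3H replicate 2). For all genes, voom weights gave 1488 calls between C3H and B6. With a mouse left out, all-gene counts were 651 to 825 for WSB and B6, 498 to 2301 for C3H and B6, and 475 to 2002 for WSB and C3H, the highest in both C3H comparisons being without C3H replicate 2. With a mouse left out, the median of the members ranged from 0.086 to 0.18 between C3H and B6 (lowest without B6 replicate 1), -0.19 to -0.10 between WSB and C3H and -0.041 to 0.017 between WSB and B6. Fitting the replicate number as a block gave 754, 480 and 531 calls over all genes in the order above, 2, 0 and 2 members, and lost Nqo1 between WSB and C3H (adjusted p by limma 0.0663). Correlations of same-numbered deviations were -0.065 to 0.053, so they showed no pairing of mice by number. Taken over many genes at once, they could not show a shared factor that moved few genes. In some fit the direction turned for 15 of 39 members between WSB and B6, 6 between C3H and B6 and 5 between WSB and C3H, none of them called and all but Gpx3 with a difference of at most 0.18 on the log2 scale. Among these were Gstp1 between WSB and B6 (0.014 after rescaling, 0.11 with near copies added, -0.059 to 0.031 with a mouse left out), Mgst1 between C3H and B6 (0.037 once the GC trend was taken out, -0.23 to 0.0071 with a mouse left out), and, with a mouse left out, Tfrc between WSB and B6 (-0.045 to 0.24), Aifm2 (-0.029 to 0.25) and Sod3 (-0.16 to 0.041) between C3H and B6, and Gpx3 between WSB and C3H (-0.040 to 0.86). The cause of these changes was not tested. With 3 mice a strain, leaving one out leaves 5 in the fit.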
